A study of Drosophila melanogaster with 4 samples.

Results

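Transcripts of 9 genes tied to sex were followed in fly heads that overexpressed lamin B: the noncoding RNAs roX1 and roX2, msl-2, the yolk protein genes Yp1, Yp2 and Yp3, and the fat body genes fit, sxe2 and Obp99b. They were picked by name, and the 10 names on the list matched 9 of the 17753 gene rows, because tsx is an older name of Obp99b. All 9 had an adjusted p-value. Poly(A)-enriched RNA from heads of 30 day old adults was compared between 2 lamin-B overexpression samples and 2 control sibling samples. Lamin-B overexpression flies were Hsp70-Gal4/+; +/UAS-LamB.GFP, so an Hsp70 promoter drove Gal4 and Gal4 drove GFP-tagged lamin B. Control siblings were +/+; +/UAS-LamB.GFP and carried the transgene without its driver, and no sample analysed here carried the driver alone. Heads were pooled before extraction, and the labels give neither the sex of the flies nor the number of heads. Nothing says that samples of a group came from separate cultures, so p-values of single genes speak to the spread among these 4 samples, part of which may be technical.

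In Drosophila the male has a single X chromosome, and a ribonucleoprotein assembly raises transcription from it. The assembly holds the proteins MSL1, MSL2, MSL3, MLE and MOF and either of the RNAs roX1 or roX2, which are made in males. In females the switch protein Sex-lethal, with its partner Unr, blocks translation of msl-2 mRNA, so the assembly does not form and roX RNAs are lost. Yolk proteins are made by the female fat body and by ovarian follicle cells. The fat body around the brain also makes sex-biased secreted proteins, with fit higher in females and sxe2, Obp99b, takeout and Cyp4d21 higher in males.

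Both roX RNAs were lower in lamin-B overexpression heads and were the 2 of the 9 genes that passed an adjusted p-value of 0.05. None of the 9 was called higher, by limma or at an unadjusted p under 0.05 either (0 genes in each). Across all 11757 genes tested, 8.74% were called in either direction by the authors' deposited table, 5.66% higher and 3.07% lower. The shrunken log2 fold changes of the 9 genes had a median of -0.11, against 0.01 over all genes tested, both in the authors' deposited table. Reads in each library were recovered from the deposited means and fold changes, and are given below divided by the authors' size factor (normalized reads). The libraries are named by that size factor, 1.15 and 1.10 in the overexpression group and 1.09 and 0.729 in the control group, and values follow that order. Normalized reads of 6 of the 9 genes were below both control libraries in both overexpression libraries, as they were for 24.6% of tested genes with recovered reads, and for 34.0% of those whose mean normalized count reached 500. For 1 gene, fit, both overexpression libraries were above both controls, as for 30.9% of all tested genes with recovered reads. The share was 22.9% among those whose mean normalized count reached 500, as that of fit did. The groups overlapped for sxe2 and Obp99b.

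**Figure D1:**
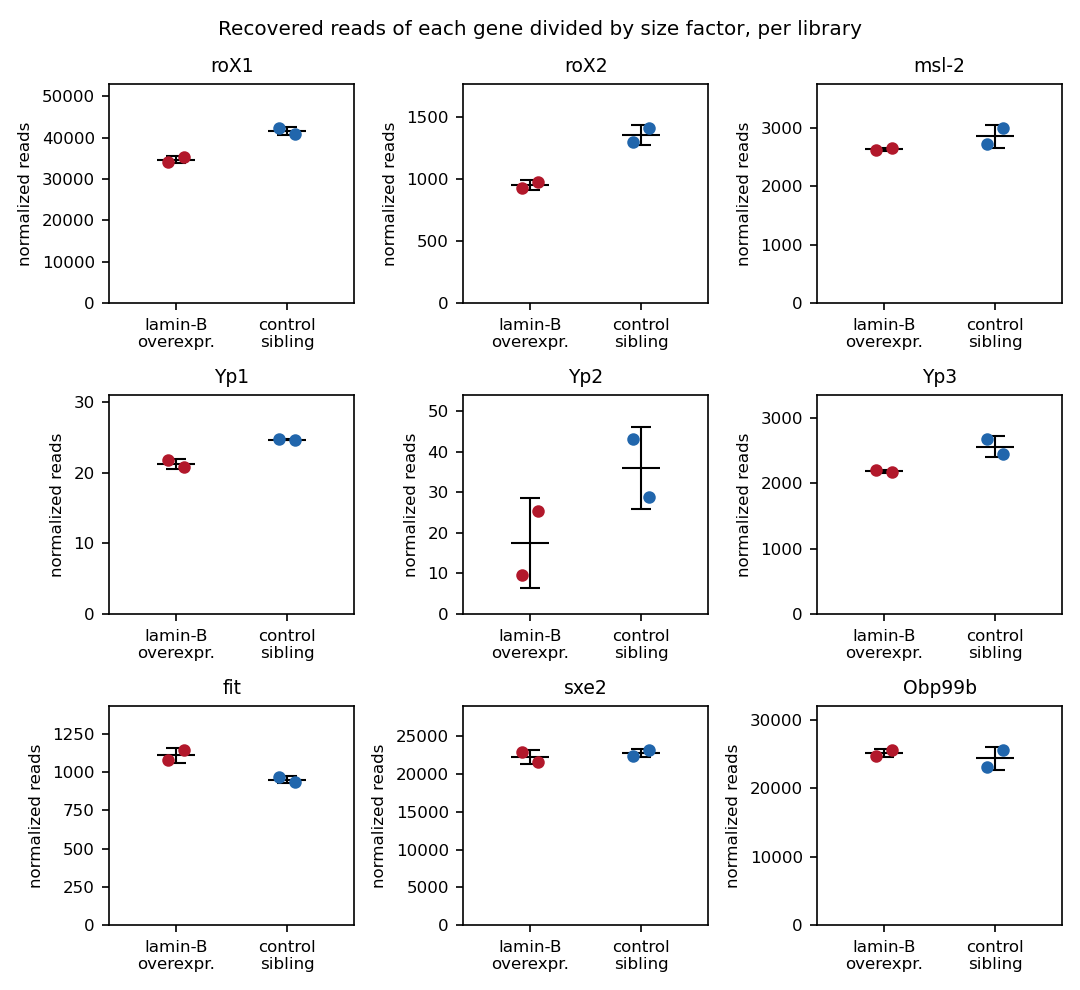
Normalized reads (recovered reads divided by size factor, vertical axis from 0) of the 9 genes in the 2 lamin-B overexpression libraries (red) and the 2 control sibling libraries (blue), with the group mean and SD in black. Both overexpression libraries lie below both controls for roX1 (34129 and 35234 against 42309 and 41023) and roX2, while the groups overlap for sxe2 and Obp99b.

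roX1 (lncRNA:roX1, FBgn0019661, X chromosome, 3857230 to 3862697, minus strand, build BDGP6) is the longer of the 2 noncoding RNAs. It had 34129 and 35234 normalized reads in the overexpression libraries, against 42309 and 41023 in the control libraries, from 39084 and 38915 reads against 46089 and 29925. Every overexpression value lay below every control value, and the gap between the groups was wider than the spread within either. The group means were 34682 ± 782 in overexpression heads and 41666 ± 909 in control heads (SD, n = 2 each), a ratio of 0.832. By the Wald test of the authors' deposited table, roX1 fell by 0.26 on the log2 scale with a standard error (SE) of 0.0464 and an adjusted p of 1.74e-06. Its fold change without shrinkage was -0.26, with a 95% interval of -0.36 to -0.17. In whole heads, fewer cells that make an RNA and less of it per cell cannot be told apart. The 3′ end of roX1 shares 392 bases with ec on the opposite strand, and the sources used here do not give the strand setting of the counting. The authors' deposited table gives ec a mean normalized count of 421 and a log2 fold change of -0.06 (adjusted p = 0.923), so ec held far fewer reads than roX1.

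roX2 (lncRNA:roX2, FBgn0019660, X chromosome, 11579065 to 11580432, plus strand) can stand in for roX1 in males. It had 925 and 979 normalized reads in overexpression heads, against 1296 and 1409 in control heads. The 2 groups were well apart, and roX2 was the lower in both overexpression libraries. Means were 952 ± 38.2 in overexpression heads and 1353 ± 79.9 in control heads (SD, n = 2 each), a ratio of 0.704. The fall in the authors' deposited table was 0.44 on the log2 scale, with SE 0.111 and an adjusted p of 0.00236. Without shrinkage the log2 fold change was -0.51, with a 95% interval of -0.76 to -0.25. The ratio of roX1 to roX2 reads within a library needs no size factor. It was 36.9 and 36.0 in overexpression heads, against 32.6 and 29.1 in control heads, so roX1 outnumbered roX2 by more in both overexpression libraries. That ratio was not tested.

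limma on the recovered reads of all 4 libraries also called both roX RNAs lower, with adjusted p = 0.00571 for roX1 and 0.00145 for roX2, among the 4.75% of 10640 genes it called lower. Fits that left out an overexpression library called few genes lower at all, so a lost call there says little about a gene. Without the overexpression library of size factor 1.15, limma gave adjusted p = 0.473 for roX1 and 0.252 for roX2, and it called 5 genes lower in all. Without the overexpression library of size factor 1.10, the adjusted p was 0.420 for roX1 and 0.265 for roX2, with 4 genes called lower in all. Without the control library of size factor 1.09, roX1 had an adjusted p of 0.113 and roX2 of 0.00658, and without that of 0.729 both stayed past the threshold (0.0291 and 0.00725). The log2 ratio stayed between -0.29 and -0.24 for roX1 and between -0.57 and -0.45 for roX2 in those 4 fits.

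msl-2 (FBgn0005616, chromosome 2L, 3462218 to 3466112, minus strand) encodes the RING finger subunit that limits the assembly to males. It had 2611 and 2651 normalized reads in overexpression heads, against 2714 and 2991 in control heads. The overexpression values were both the lower, but the nearest values of the groups lay closer together than the 2 controls did. msl-2 stood at -0.11 in the authors' deposited table, with SE 0.0871 and an adjusted p of 0.604, and without shrinkage its 95% interval ran from -0.30 to 0.07. The ratio of roX2 to msl-2 reads was 0.354 and 0.369 in overexpression heads, against 0.478 and 0.471 in control heads. The ratio of roX1 to msl-2 reads was 13.1 and 13.3 in overexpression heads, against 15.6 and 13.7 in control heads. Both ratios were lower in both overexpression libraries and neither was tested.

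Of 12 genes for protein partners of dosage compensation, all tested, 2 were called lower and 0 higher. Over all genes tested, 3.07% were called lower and 5.66% higher, and 5.25% were lower among means of at least 500. The median log2 fold change of the 12 partners was -0.07 in the authors' deposited table. The 2 partners called lower were mle and Unr. MLE is the RNA helicase that remodels roX RNA for the assembly. mle (chromosome 2R) had 4930 and 4871 normalized reads in overexpression heads, against 6094 and 6070 in control heads, and these 2 pairs did not overlap. The authors' deposited table has mle lower by a log2 value of -0.30, with SE 0.0607 and an adjusted p of 4.27e-05. Unr binds RNA and acts with Sex-lethal on msl-2 mRNA in females. Unr (chromosome 3L) had 4834 and 5405 normalized reads in overexpression heads, against 7809 and 6676 in control heads. It was lower in both overexpression libraries, and the authors' deposited table has it at -0.45, with SE 0.0950 and an adjusted p of 9.51e-05. In limma without the overexpression library of size factor 1.15, where 5 genes in all were called lower, mle had a log2 ratio of -0.32 (adjusted p = 0.174) and Unr of -0.42 (0.372). Without that of 1.10, where 4 genes were called lower, mle had -0.30 (0.217) and Unr -0.58 (0.326).

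The core subunits other than mle were not called. The scaffold gene msl-1 had 1436 and 1517 normalized reads in overexpression heads, against 1477 and 1579 in control heads, with a log2 fold change of -0.04 (adjusted p = 0.919) in the authors' deposited table. For the chromodomain subunit gene msl-3 the values were 520 and 474 in overexpression heads, against 564 and 504 in control heads (log2 fold change -0.08, adjusted p = 0.874, in the authors' deposited table). For both genes the groups overlapped. The histone acetyltransferase gene mof stood at 438 and 445 normalized reads in overexpression heads, against 420 and 418 in control heads (0.06, adjusted p = 0.922, in the authors' deposited table). Clamp, whose protein brings the assembly to the X, had 2344 and 2539 in overexpression heads, against 2795 and 2514 in control heads (-0.11, adjusted p = 0.634, in the authors' deposited table). Fold changes of JIL-1, Top2, Rm62, Hrb87F, Chro and pzg ranged from -0.09 for pzg to 0.05 for Rm62 in the authors' deposited table.

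**Figure D2:**
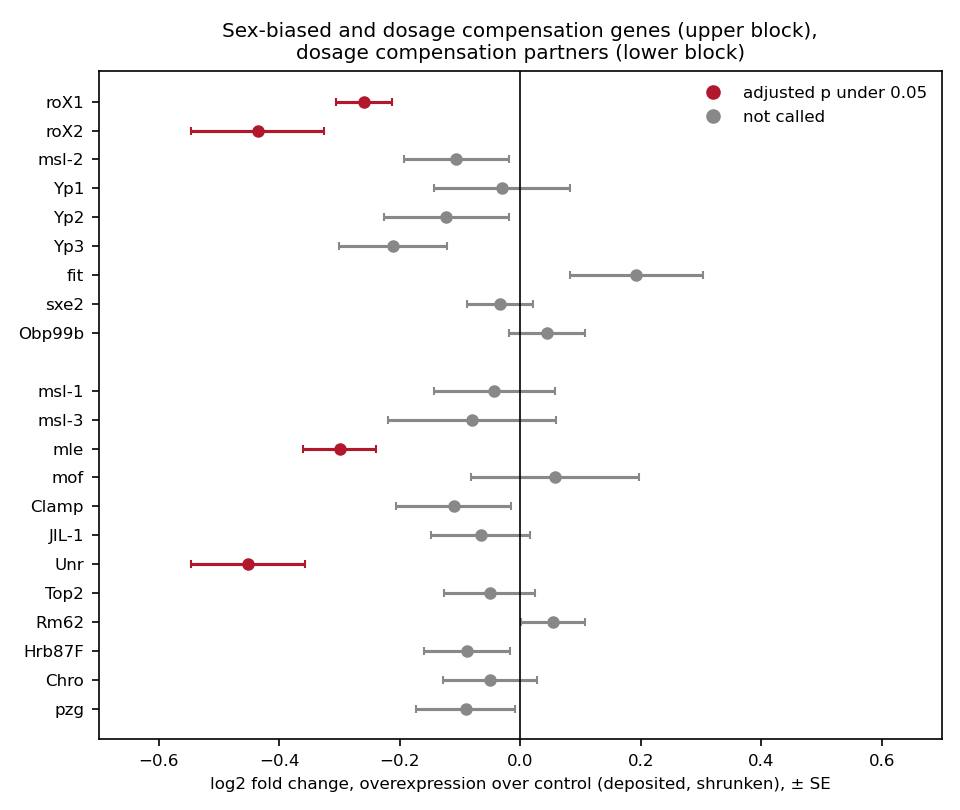
Shrunken log2 fold change of the authors' deposited table, overexpression over control (horizontal axis, bars ± SE), for the 9 genes above and for 12 dosage compensation partners below, with genes of adjusted p under 0.05 in red. roX1 at -0.26, roX2 at -0.44, mle at -0.30 and Unr at -0.45 are the called genes, and all other points lie nearer to 0 than roX1.

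X-linked genes as a whole lay close to autosomal genes in their median fold changes, but a smaller share of them was called. Of 1857 X-linked genes tested, 68 were called higher and 47 lower (6.19% called), with a median log2 fold change of -0.00 in the authors' deposited table. Of 9797 autosomal genes, 592 were higher and 310 lower (9.21% called), with a median of 0.01 in the authors' deposited table. Among all genes whose mean normalized count reached 500, 8.97% were called and 5.25% were lower. In that set the X had 28 higher and 46 lower of 1087 (6.81% called). The autosomes had 203 higher and 282 lower of 5155 (9.41% called). Their medians were -0.03 on the X and -0.02 on the autosomes in the authors' deposited table, and the 2 distributions lay close together. X-linked genes held 16.9% and 16.9% of normalized recovered reads in overexpression heads, against 17.1% and 17.0% in control heads. Of 615 genes with a mean over 10000, only 9 had recovered reads, so these shares leave out most of the highly expressed genes. These shares and medians are descriptions without a test.

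**Figure D3:**
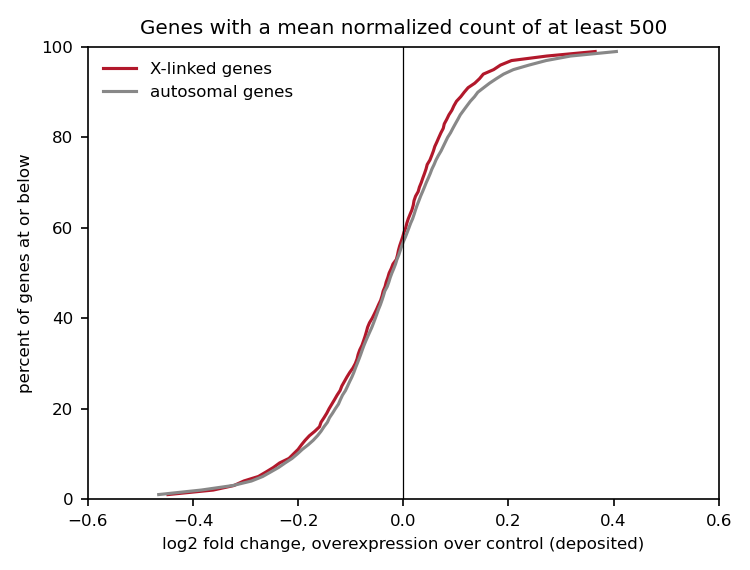
Cumulative percent of genes (vertical axis) at or below a given log2 fold change, overexpression over control (horizontal axis, the authors' deposited values), for X-linked genes (red) and autosomal genes (grey) whose mean normalized count reached 500. The curves cross the 50% line at -0.03 for the X and -0.02 for the autosomes. The X curve lies slightly left of the autosomal one from percentile 4 to percentile 99.

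By a distance between log2 profiles centred on their mean over the 4 libraries, 3 of 7858 ranked genes lay nearest to the mean profile of roX1 and roX2. They were DAAM (X chromosome, distance 0.0223), a formin gene, Rnf11 (chromosome 4, distance 0.0234), a RING finger gene, and CG10738 (chromosome 3L, distance 0.0244). roX1 and roX2 each lay 0.135 from their own mean, farther than those 3 genes. DAAM had 3909 and 4129 normalized reads in overexpression heads, against 5263 and 5324 in control heads. Rnf11 had 1208 and 1264 in overexpression heads, against 1619 and 1627 in control heads. CG10738 had 183 and 194 in overexpression heads, against 241 and 245 in control heads. That all 3 were lower in overexpression heads follows from how they were picked. DAAM and Rnf11 were called lower in the authors' deposited table and CG10738 was not (adjusted p = 0.511). The likeness rests on 4 libraries only.

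The yolk protein genes were not called. Yp1 and Yp2 encode yolk proteins and are neighbours on the X, 1174 bases apart and read in opposite directions. Both had few reads in all 4 libraries. Yp1 (FBgn0004045, 10053811 to 10055498, plus strand) had 25 and 23 reads in overexpression heads, against 27 and 18 in control heads. After scaling these were 21.8 and 20.8 normalized reads in overexpression heads, against 24.8 and 24.7 in control heads, and the groups lay close together. The ratio of summed reads over size factors was 0.862, with an exact 95% binomial interval of 0.562 to 1.33 that covers counting error only. Yp1 stood at a log2 fold change of -0.03 in the authors' deposited table, with SE 0.113 and an adjusted p of 0.953.

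Yp2 (FBgn0005391, 10050951 to 10052636, minus strand) had 11 and 28 reads in overexpression heads, against 47 and 21 in control heads. That is 9.61 and 25.4 normalized reads in overexpression heads, against 43.1 and 28.8 in control heads, so the libraries within each group differed by far more than the nearest values of the groups did. The ratio of summed reads was 0.464 (exact 95% binomial interval 0.304 to 0.697), an interval that leaves out the difference between libraries of a group. Without the overexpression library of size factor 1.15 the ratio was 0.678 (0.420 to 1.07), without that of 1.10 it was 0.257 (0.123 to 0.489), and without the control library of 1.09 it was 0.602 (0.346 to 1.08). Yp2 stood at -0.12, with SE 0.104 and an adjusted p of 0.624, in the authors' deposited table, where shrinkage understates changes of genes with so few reads.

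Yp3 (FBgn0004047, X chromosome, 13759546 to 13761547, plus strand), the third yolk protein gene, was of another order. It had 2201 and 2168 normalized reads in overexpression heads, against 2678 and 2447 in control heads. Both overexpression values were below both controls. Means were 2185 ± 23.3 in overexpression heads and 2562 ± 163 in control heads (SD, n = 2 each), a ratio of 0.853. The log2 fold change of -0.21 (SE 0.0892) had p = 0.0177 before adjustment and adjusted p = 0.129 in the authors' deposited table. Without shrinkage the 95% interval ran from -0.42 to -0.04 and is not adjusted for the number of genes. limma on recovered reads put Yp3 past the threshold (adjusted p = 0.0338). Leaving out 1 library gave adjusted p from 0.0205, without the control library of size factor 0.729, to 0.410, without the overexpression library of 1.10. A call on Yp3 therefore turned on the test and on single libraries.

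Of 7 tested genes of the ovary and eggshell, 0 were called, where 8.74% of all genes tested were called. Each of the 7 had an adjusted p of at least 0.672 in the authors' deposited table, and 0 had an unadjusted p under 0.05 there. limma called 0 of the 6 it could test. The 20 recovered genes of that list summed to 231 and 242 normalized reads in overexpression heads, against 307 and 212 in control heads. The yolk receptor gene yl, expressed in the female germ line, had 5 and 9 reads in overexpression heads, against 0 and 0 in control heads, and had no adjusted p.

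fit (FBgn0038914, chromosome 3R, 21883924 to 21884454, minus strand) encodes a female-biased peptide of the head fat body. It had 1078 and 1144 normalized reads in overexpression heads, against 968 and 934 in control heads. Both overexpression libraries were above both controls, the opposite side from Yp3. Means were 1111 ± 47.3 in overexpression heads and 951 ± 24.0 in control heads (SD, n = 2 each), a ratio of 1.17. The authors' deposited table put fit at a log2 fold change of 0.19, with SE 0.111 and an adjusted p of 0.341, and the 95% interval without shrinkage was -0.03 to 0.48. limma on recovered reads did not call fit either (adjusted p = 0.0846). Its log2 ratio in limma stayed between 0.18 and 0.27 when 1 library was left out. The ratio of Yp3 to fit reads was 2.04 and 1.89 in overexpression heads, against 2.77 and 2.62 in control heads. That ratio had to be lower in overexpression heads, because Yp3 was lower and fit higher in both of those libraries. Yp3 and fit, both female-biased, stood on opposite sides, but neither was called in the authors' deposited table. The difference between Yp3 and fit was not tested.

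sxe2 (FBgn0038398, chromosome 3R, 16083878 to 16087222, plus strand) belongs to a lipase family and is male-biased in the head. It had 22955 and 21578 normalized reads in overexpression heads, against 22454 and 23166 in control heads, and the groups overlapped. sxe2 stood at -0.03 on the log2 scale of the authors' deposited table, with SE 0.0550 and an adjusted p of 0.863, and the 95% interval without shrinkage ran from -0.15 to 0.08. sxe2 lies inside Mhcl on the opposite strand. The authors' deposited table gives Mhcl a mean normalized count of 14061 and a log2 fold change of 0.02. This overlap is of whole gene spans, and whether the 2 genes share exon bases was not checked. The strand setting is not known either, so whether reads of 1 gene were counted for the other was not tested.

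Obp99b (FBgn0039685, chromosome 3R, 29716254 to 29716896, minus strand), also known as tsx, encodes an odorant-binding protein made in the male fat body. It had 24785 and 25574 normalized reads in overexpression heads, against 23178 and 25608 in control heads. The 2 controls differed by more than the group means did. Obp99b stood at 0.04 on the log2 scale of the authors' deposited table, with SE 0.0637 and an adjusted p of 0.835, and had a 95% interval without shrinkage of -0.08 to 0.18.

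Compared per kb of exon, the 9 genes spanned a wide range of levels. Obp99b was the highest, with a mean normalized count of 41728 per kb that ranked 29th of 11676 genes. sxe2 followed at 12323 per kb and roX1 at 6981 per kb, which was 8.29 times the level of roX2. fit stood at 1941, Yp3 at 1271, roX2 at 842 and msl-2 at 713 per kb, and Yp2 at 16.5 and Yp1 at 14.3 per kb. The ranges over the 4 libraries of roX2 (676 to 1030 per kb) and msl-2 (679 to 778 per kb) overlapped, as did those of Yp2 (5.94 to 26.7 per kb) and Yp1 (12.9 to 15.4 per kb). The other neighbours in that order did not overlap. The level of Yp3 per kb was 88.9 times that of Yp1 and 76.9 times that of Yp2, so the 3 yolk protein genes were not at like levels in these heads.

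**Figure D4:**
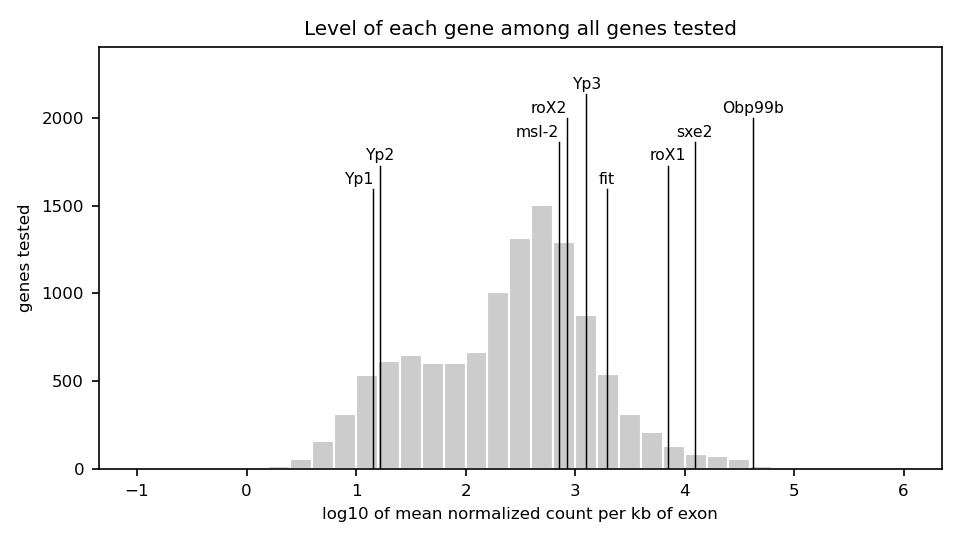
Number of tested genes (vertical axis) by log10 of mean normalized count per kb of exon (horizontal axis), with black lines at the 9 genes. Yp1 and Yp2, at 14.3 and 16.5 per kb, stand in the low tail, roX2 and msl-2 at 842 and 713 per kb stand above the peak, and Obp99b, at 41728 per kb, is near the top.

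The sex determination pathway gave 0 calls among its 20 tested genes in the authors' deposited table, which called 8.74% of all genes tested. The median log2 fold change of the 20 genes there was -0.04. At an unadjusted p under 0.05 that table has 1 of them, Ythdc1, a reader of methylated RNA that acts in Sxl splicing, named here after its values were seen. Ythdc1 had 4709 and 5564 normalized reads in overexpression heads, against 7072 and 5886 in control heads. The groups did not overlap, with an adjusted p of 0.0635 in the authors' deposited table and of 0.0258 in limma, where it was the 1 called gene of 19 tested. Of all genes in that limma fit, 4.75% were called lower. The limma call on Ythdc1 did not hold without either overexpression library or without the control library of size factor 1.09. It held without the control library of 0.729. The log2 ratio was -0.21 without the overexpression library of 1.15 and -0.45 without that of 1.10. It was -0.20 without the control library of 1.09 and -0.47 without that of 0.729. dsx was not called in limma on all 4 libraries (adjusted p = 0.135), passed without the control library of 0.729 (0.0222), and had 0.461 to 0.748 in the other 3 fits. For the switch gene Sxl the authors' deposited table gives -0.27, with SE 0.157 and an adjusted p of 0.363. tra and tra2 encode splicing regulators of dsx and fru. All values here are totals per gene, so splice forms of Sxl, tra, dsx and fru were not compared. tra had 415 and 436 normalized reads in overexpression heads, against 478 and 424 in control heads, and tra2 had 768 and 738 in overexpression heads, against 667 and 733 in control heads. tra overlapped between the groups, and tra2 was higher in both overexpression libraries. dsx, the transcription factor gene at the end of the pathway, had 1643 and 1903 normalized reads in overexpression heads, against 2255 and 1888 in control heads (log2 fold change -0.19, adjusted p = 0.406, in the authors' deposited table). fru, which patterns male courtship circuits, had 2321 and 2751 in overexpression heads, against 2972 and 2735 in control heads (-0.15, adjusted p = 0.499, in the authors' deposited table). Both genes overlapped between the groups.

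Other sex-biased, fat body and pheromone genes changed in both directions, with 4 called higher and 3 lower of 14 tested. The shares over all genes tested were 5.66% higher and 3.07% lower. Cyp4d21, a male-biased cytochrome P450 gene, was not called. It had 8690 and 8100 normalized reads in overexpression heads, against 7678 and 8088 in control heads (log2 fold change 0.09, adjusted p = 0.568, in the authors' deposited table). takeout (to), a male-biased gene of the head fat body, had 2211 and 2213 in overexpression heads, against 2114 and 2372 in control heads (-0.02, adjusted p = 0.974, in the authors' deposited table). Cyp4d21 was higher in both overexpression libraries, though its nearest values, 8100 in overexpression heads and 8088 in control heads, almost met, and to overlapped between the groups. The genes called lower were 3 hexamerins, storage proteins of the fat body, with Lsp2 at 2507 and 2109 normalized reads in overexpression heads, against 4476 and 4396 in control heads. In the authors' deposited table Lsp2 fell by 0.84, Lsp1beta by 0.84 and Lsp1alpha by 0.55. The genes called higher were fon, a clotting protein gene, the lipid carrier genes Apoltp and apolpp, and Desat1, a desaturase of hydrocarbon synthesis. Their log2 fold changes were 0.47 for fon, 0.34 for Apoltp, 0.14 for apolpp and 0.23 for Desat1 in the authors' deposited table. Without the overexpression library of size factor 1.15, limma gave adjusted p = 0.177 for fon, 0.277 for Apoltp, 0.0651 for Lsp1alpha and 0.0758 for Lsp1beta. Without that of 1.10 it gave 0.207 for fon, 0.397 for Apoltp, 0.0951 for Lsp1alpha, 0.0794 for Lsp1beta and 0.0522 for Lsp2. Lsp2 stayed past the threshold without that of 1.15 (0.0310). Reads of Desat1 and apolpp were not recovered, so limma was not run on them.

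The overexpressed gene and markers of other tissues were read in the same libraries. Lam had 4414 and 4758 normalized reads in overexpression heads, against 2109 and 2130 in control heads, and the authors' deposited table has it higher by 1.04 (adjusted p = 6.76e-36). For the marker counts that follow, the shares over all genes tested were 5.66% called higher and 3.07% lower. The male reproductive tract list had 17 genes called higher and 0 lower of 29 tested. Reads were recovered for 29 of its 34 genes and summed to 1902 and 5426 normalized reads in overexpression heads, against 108 and 169 in control heads. Among them Acp26Aa, Acp53Ea and Dup99B had 0 reads in both control libraries. Of 12 head markers, 5 were called lower, namely ninaE, Rh3, Rh4, Rh6 and elav. Not called were ninaC, nSyb, Syt1, brp, repo, Gs2 and alrm, with log2 fold changes from -0.33 for Syt1 to 0.02 for repo in the authors' deposited table. Reads were recovered for another set of 5, Rh3, Rh6, elav, repo and alrm. These summed to 56774 and 56239 in overexpression heads, against 75508 and 73667 in control heads, mostly reads of Rh3 and Rh6. The rhodopsin gene Rh3, a defining marker of inner photoreceptors, had 24085 and 24145 normalized reads in overexpression heads, against 32266 and 31479 in control heads, so head tissue was present in all 4 libraries. Of 10 gut markers 6 were higher and 1, Amy-p, was lower. Recovered sums were 11365 and 13024 in overexpression heads, against 12269 and 11726 in control heads. These sums are mostly reads of Amy-p (10401 and 10571 against 12264 and 11724) and do not show the 6 higher genes. Mal-A7, 1 of those 6, had 301 and 634 normalized reads in overexpression heads, against 0 and 0 in control heads. Of 4 fat body markers 1 was higher and 1 lower, and the 3 recovered summed to 4732 and 4341 in overexpression heads, against 6597 and 6772 in control heads. That lower sum is the lower Lsp2, and it leaves out apolpp, the most abundant of the 4 (mean normalized count 239399) and the one called higher in the authors' deposited table. The part of these tissues in the lower roX RNAs, and in the values of fit, Yp3, sxe2 and Obp99b, was not tested.

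**Figure D5:**
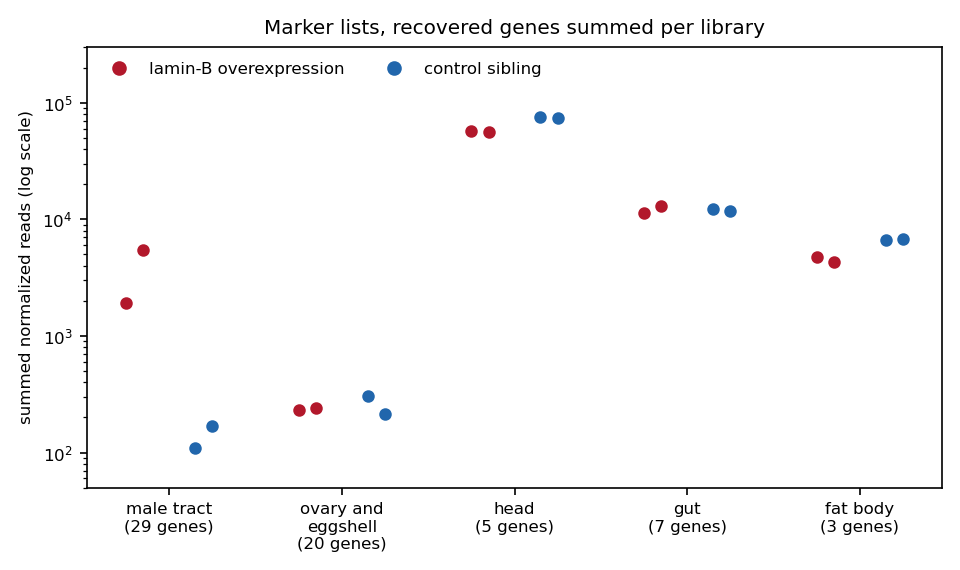
Summed normalized reads of the recovered genes of 5 marker lists (vertical axis, log scale) in the overexpression libraries (red) and the control libraries (blue). Male tract sums are 1902 and 5426 in overexpression heads against 108 and 169 in control heads, while head and fat body sums (the first over 5 of 12 markers, mostly Rh3 and Rh6, the second following Lsp2 and without apolpp) are lower in both overexpression libraries. The gut sum is mostly reads of Amy-p, which was called lower, and does not show the 6 gut markers called higher.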

How the data were processed

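RNA of pooled heads was sequenced as paired ends in 4 samples. STAR 2.5, HTSeq, DESeq2 1.22.1 and DESeq on BDGP6 are named, without roles, per the submitters' processing notes. The authors' deposited signal (BaseMean) is a gene's mean normalized count over the libraries. The authors' deposited log2 fold change is shrunken towards 0, their deposited Wald score is that change over its error, and their deposited p-value comes with a Benjamini-Hochberg adjusted one over 11757 genes. A positive change means higher in overexpression heads, by the order in which the table names its groups. A second table in the same layout names no groups and was not used. The planned edgeR test needs counts per library, which the tables used here do not hold, so each gene's test is the authors' DESeq2 Wald test, with calls at adjusted p under 0.05.

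Each library's whole reads were worked out from the deposited mean, printed to 10 digits, as the 4 whole numbers whose scaled sum gives the mean and whose refitted penalised model (constant 9.73) gives the deposited fold change and error. Of the tested genes, 93.0% had a single solution. Genes outside the lists were searched up to a mean of 10000. A library's group came from the sign the authors gave to genes with 1 read in all, and recovered libraries carry no replicate number. Recovered reads summed to 16856337 and 16475154 in overexpression libraries and 16554744 and 10967560 in control libraries. Of 2331 genes whose reads were found from the mean alone, 2265 also gave the deposited fold change to within 1e-06. Levels use bases of merged exons, and coordinates come from the Ensembl annotation of the build. Fold changes without shrinkage have intervals of 1.96 standard errors. limma 3.58.1 (R 4.3.3) with a mean-variance trend was run on log2(normalized reads + 1) for genes with a mean of at least 10. Named were the 9 genes, every called gene of the dosage compensation, sex determination and other sex-biased lists, fixed regulators (Sxl, tra, tra2, dsx, fru, msl-1, msl-3, mle, mof, Clamp, Cyp4d21, to and yl), and the 3 genes nearest the roX profile with a mean of at least 100. Marker genes and Ythdc1 were named after their values were seen. Genes and lists were chosen with earlier results of these data known. One ovary gene, nos, was not used here. Intervals of read ratios cover counting error only.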

Additional observations from a re-analysis of the deposited data

How the results depend on the processing

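Adjusting over every gene with a p-value, or only over genes with a mean of at least 10 or 500, moved none of the 9 genes across the threshold, with Yp1 and Yp2 outside the last filter. A threshold of 0.1 was tried for the counts only. Genes called numbered 1027 as deposited and 573 among means of at least 500, and X-linked genes called 115 and 75, since fewer genes were tested. The limma fits and the scaling to all recovered reads were chosen after seeing the data. limma on recovered reads called 184 X-linked genes and brought Yp3 past the threshold (adjusted p = 0.0338). Leaving out 1 library in limma, where the lone sample is assumed to vary like the other group, gave 261 to 1219 genes and 16 to 159 X-linked genes. The adjusted p then ran from 0.0291 to 0.473 for roX1, 0.00658 to 0.265 for roX2 and 0.0205 to 0.410 for Yp3. Ratios of summed reads ran from 0.842 to 0.882 for Yp1 and 0.257 to 0.678 for Yp2. Scaling to all recovered reads kept the sign of all 9 fold changes, with log2 ratios of -0.24 for roX1 and -0.48 for roX2. That scaling leaves out most genes with a mean over 10000, whose reads were not recovered. No called result changed sign. No paired analysis was possible because recovered libraries carry no replicate number. edgeR with TMM and DESeq2 with its own size factors were not run, since counts per library are not among the tables used here. Depth limits Yp1 and Yp2, which had 11 to 47 reads a library.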
